A study of Homo sapiens with 12 samples.

Results

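The 4 genes for inhibitors of differentiation, ID1, ID2, ID3 and ID4, were followed together with 6 genes that supply or restrain BMP and TGF-beta signals, SMAD6, SMAD7, BAMBI, SKIL, BMP4 and TGFB1. They were picked by symbol, and all 10 were among the 26372 gene symbols of each expression table. Of these 10, 9 reached 1 FPKM in at least 1 group and were compared with the 13456 features that did. FPKM counts fragments per length of transcript, scaled to all mapped fragments, so levels of different genes can be set side by side. ID4 stayed under 1 FPKM, with 0.381, 0.515 and 0.486 FPKM in mock, starved and refed KO cells against 0.422, 0.626 and 0.684 FPKM in WT cells in the same order, and was not tested.

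The cells were HCT116, a human colorectal carcinoma line, with KDM3A knocked out (KO) or wild type (WT). KDM3A encodes an enzyme that takes methyl groups off lysine 9 of histone H3. Each genotype was grown in normal medium (mock), in medium without serum (starved), or without serum for 24 h and then with fetal bovine serum added back (refed). The time from serum addition to harvest, how the knockout was made and how many clones it rests on are not given in the sources used here. There are 12 labelled samples, 2 a group, but only 1 deposited column for each of the 6 groups. Every level below is therefore 1 value a group and has no replicate error.

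Ligands of the BMP and TGF-beta family bind pairs of receptor kinases, which phosphorylate SMAD proteins that then enter the nucleus with SMAD4. ID1, ID2 and ID3 are among the best known direct targets of the BMP branch, and their proteins hold basic helix-loop-helix factors such as TCF3 away from DNA. The same signals switch on their own brakes, the inhibitory SMADs SMAD6 and SMAD7, the decoy receptor BAMBI and the co-repressor SKIL. In the intestine BMP signals are known to favour differentiation of cells that leave the crypt.

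The targeted gene had 3.15, 3.01 and 3.59 FPKM in mock, starved and refed KO cells, against 41.3, 17.8 and 19.8 FPKM in WT cells in the same order. Of 12 colorectal epithelial markers 9 were at 1 FPKM or more in every group, while LGALS4, VIL1 and CDX1 were at 0.157 FPKM or less. The 12 summed to 5702, 5119 and 6319 FPKM in mock, starved and refed KO cells, against 2779, 2361 and 2826 FPKM in WT cells. The sum was higher in KO in each state, as were most of the 10 genes, and the part of this difference in the results was not tested. Most of the sum came from KRT8, KRT18 and KRT19. EPCAM was at 203, 189 and 179 FPKM in KO, against 176, 150 and 145 FPKM in WT. CDX2 in mock cells was lower in KO, at 7.10 against 7.51 FPKM. The WT mock column stood apart. All its features summed to 1.15e+06 FPKM, against 481036 to 629410 FPKM in the other 5 groups. Without short RNA features the sum was 522147 FPKM in WT mock and 444367 to 593675 FPKM in the others. Of 20 endothelial markers, 18 reached 1 FPKM in WT mock at a level at least 2-fold that of any other group. The 20 markers summed to 319 FPKM in WT mock against 51.6 to 95.5 FPKM in the other 5 groups, where EGFL7 made up 44.2 to 84.3 FPKM. CDH5 reached 25.8 FPKM in WT mock cells and at most 0.0622 FPKM elsewhere, and ERG was listed at 0 in all KO groups. In such bulk samples more cells of a type and more RNA per cell cannot be told apart. The sum over 12 fibroblast and smooth muscle markers ranged from 22.9 to 53.6 FPKM in KO and from 23.6 to 34.7 FPKM in WT, and that over 8 leukocyte markers from 17.8 to 33.5 FPKM in KO and from 5.18 to 12.8 FPKM in WT, where 1 gene, CD68, was at 1 FPKM or more.

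Both the BMP-induced ID genes and the inhibitory SMADs were higher in KO cells than in WT cells in all 3 culture states. Averaged over states the widest gap was in SMAD7, whose protein blocks receptor-activated SMADs at the receptor. ID2 and SMAD6, which restrains mainly the BMP branch, came next, and their order depended on the pseudocount (log2 1.46 for ID2 and 1.44 for SMAD6 at 1, and 1.48 and 1.62 at 0.1). In level ID1 was near the top of the transcriptome, while SMAD6 and SMAD7 stood at 18.1 FPKM or less.

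ID1 was the most abundant of the 10 genes, with 798, 751 and 1045 FPKM in mock, starved and refed KO cells, against 604, 456 and 429 FPKM in WT cells. The lowest KO value was above the highest WT value, and ID1 stood at rank 91 to 109 of 13049 features in KO and at rank 118 to 136 in WT, short RNA features left out. The KO to WT ratio was 1.32 in mock, 1.65 in starved and 2.43 in refed cells. ID2 had 169.7, 139 and 239 FPKM in KO, against 57.9, 45.1 and 99.0 FPKM in WT. These ranges did not overlap either, and the ratio was similar in the 3 states, at 2.93, 3.07 and 2.41. ID3 had 202, 220.3 and 467 FPKM in KO, against 127, 135 and 249.6 FPKM in WT. Here the ranges overlapped, because WT refed cells were above KO mock and KO starved cells, but within each state KO was higher, by 1.59-fold, 1.64-fold and 1.87-fold.

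SMAD7 had 8.06, 11.5 and 18.1 FPKM in mock, starved and refed KO cells, against 2.22, 1.97 and 2.09 FPKM in WT cells. WT cells held nearly 1 level throughout, whereas the KO values differed among themselves, so the ratio was 3.62 in mock, 5.85 in starved and 8.63 in refed cells. SMAD6 had 8.75, 15.7 and 15.3 FPKM in KO, against 4.69, 4.15 and 3.57 FPKM in WT. Its ratio was 1.86 in mock cells and 3.77 and 4.30 in starved and refed cells, and again no KO value reached down to the WT range.

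BAMBI, a membrane protein that resembles a receptor without a kinase, had 7.26, 14.5 and 15.2 FPKM in KO, against 5.46, 4.55 and 3.11 FPKM in WT. All 3 KO values lay above all 3 WT values, but in mock cells the 2 genotypes were only 1.33-fold apart, against 3.19-fold and 4.90-fold in starved and refed cells. SKIL, whose protein SnoN represses SMAD targets, had 3.09, 2.42 and 5.21 FPKM in KO, against 3.29, 1.15 and 1.91 FPKM in WT. In mock cells SKIL was slightly lower in KO, and in starved and refed cells it was 2.10-fold and 2.73-fold higher.

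The ligand genes differed less. BMP4, which encodes a BMP ligand and was below ID1 in level in every group, had 117, 193 and 250.2 FPKM in KO, against 153, 173 and 196 FPKM in WT. KO was lower in mock cells and higher in refed cells, and in starved cells the sign of the difference depended on the scale (log2 0.16 as deposited and -0.07 after median-ratio rescaling). TGFB1, the gene of the TGF-beta 1 ligand, had 41.0, 30.1 and 32.0 FPKM in KO, against 32.0, 25.2 and 23.0 FPKM in WT, with ratios of 1.28, 1.19 and 1.39. TGFB1 lies next to and partly over HNRNPUL1, CCDC97 and TMEM91 on the other strand, and ID2 has an antisense gene, ID2-AS1, at 0.755 to 1.20 FPKM. Whether fragments were assigned by strand is not stated, which makes the TGFB1 value less certain. HNRNPUL1 was at 45.7 to 47.3 FPKM in KO and 41.0 to 42.7 FPKM in WT.

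**Figure D1:**
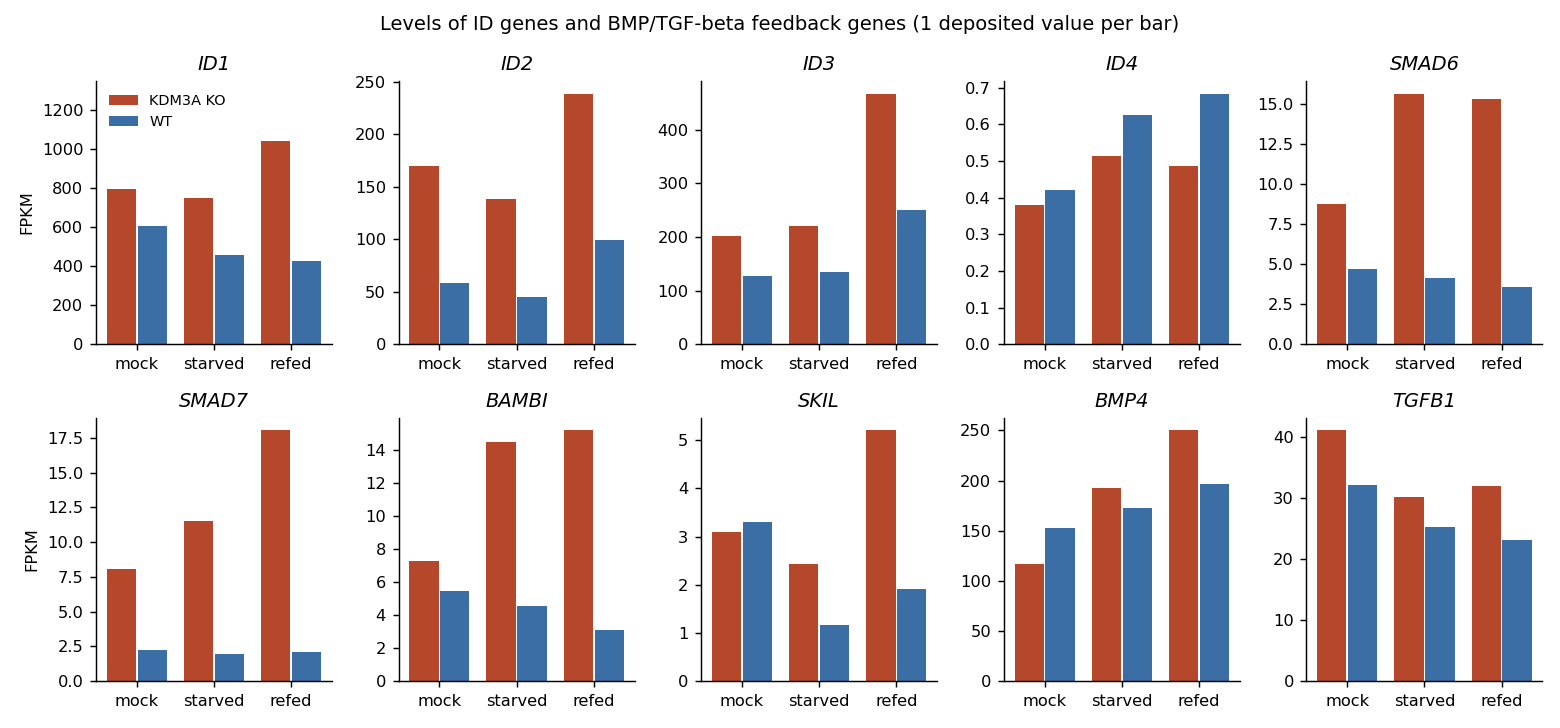
Level of each of the 10 genes in FPKM (vertical axis from 0, a scale of its own per panel) in mock, starved and refed cells, KDM3A KO in red and WT in blue, 1 deposited value per bar with no error. SMAD7 in WT lies between 1.97 and 2.22 FPKM while KO reaches 18.1 FPKM, and ID4 stays under 1 FPKM in all groups.

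To show what stands upstream of the 6 genes with the largest averaged KO differences (given further on), the 250 bases before the annotated start are printed for ID1, ID2, ID3, SMAD6, SMAD7 and BAMBI, read from RefSeq on build GRCh38.p14 in the direction of transcription. The deposited values rest on the earlier build hg19 and were joined by symbol alone. The windows are chr20:31605039-31605288 (ID1) on the plus strand, chr2:8681806-8682055 (ID2) on the plus strand, chr1:23559502-23559751 (ID3) on the minus strand, chr15:66701986-66702235 (SMAD6) on the plus strand, chr18:48950966-48951215 (SMAD7) on the minus strand, the most upstream of 3 starts listed for SMAD7, and chr10:28677271-28677520 (BAMBI) on the plus strand. Capitals mark matches, on either strand, to the SMAD palindrome GTCTAGAC, the shorter SMAD element CAGAC, and the GC-rich elements GGCGCC and GGAGCC that BMP-activated SMADs are known to bind.
ID1: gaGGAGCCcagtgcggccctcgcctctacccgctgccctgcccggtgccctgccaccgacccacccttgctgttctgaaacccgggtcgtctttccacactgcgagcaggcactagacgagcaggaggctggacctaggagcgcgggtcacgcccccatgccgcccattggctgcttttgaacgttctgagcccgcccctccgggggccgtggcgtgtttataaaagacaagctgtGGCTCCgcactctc
ID2: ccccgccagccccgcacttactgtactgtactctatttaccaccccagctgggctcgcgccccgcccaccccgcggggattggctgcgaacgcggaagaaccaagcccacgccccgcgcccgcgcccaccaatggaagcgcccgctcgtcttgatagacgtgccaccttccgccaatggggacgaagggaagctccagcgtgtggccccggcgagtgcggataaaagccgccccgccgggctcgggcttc
ID3: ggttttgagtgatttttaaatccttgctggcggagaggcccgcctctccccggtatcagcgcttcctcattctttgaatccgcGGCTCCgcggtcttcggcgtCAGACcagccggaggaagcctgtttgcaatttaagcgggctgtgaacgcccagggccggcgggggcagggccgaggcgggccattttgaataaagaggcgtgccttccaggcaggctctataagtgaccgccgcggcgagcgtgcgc
SMAD6: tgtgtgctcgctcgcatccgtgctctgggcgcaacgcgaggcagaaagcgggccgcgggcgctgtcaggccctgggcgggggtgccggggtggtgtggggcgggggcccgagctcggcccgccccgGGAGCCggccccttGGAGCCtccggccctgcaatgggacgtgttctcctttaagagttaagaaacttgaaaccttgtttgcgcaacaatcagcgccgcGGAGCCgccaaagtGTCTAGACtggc
SMAD7: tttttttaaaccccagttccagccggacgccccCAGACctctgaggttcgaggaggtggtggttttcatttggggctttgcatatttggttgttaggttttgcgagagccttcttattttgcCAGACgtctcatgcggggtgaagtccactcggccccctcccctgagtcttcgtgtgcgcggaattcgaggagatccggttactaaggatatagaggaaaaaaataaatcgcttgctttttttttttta
BAMBI: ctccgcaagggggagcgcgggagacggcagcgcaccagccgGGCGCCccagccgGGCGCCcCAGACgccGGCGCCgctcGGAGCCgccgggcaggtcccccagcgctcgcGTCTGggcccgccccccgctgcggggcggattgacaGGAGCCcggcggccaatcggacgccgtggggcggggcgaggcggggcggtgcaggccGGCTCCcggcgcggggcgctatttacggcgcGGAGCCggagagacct
The 8-base palindrome stood 12 to 5 bases before the SMAD6 start. Among all 35116 promoter windows of this length 64, or 0.182%, held it, and among the 14 windows of the 10 genes the SMAD6 window was the single match. CAGAC was present in 8 of the 14 windows, against 38% of all windows, GGAGCC in 9 of 14 against 30.6%, and GGCGCC in 3 of 14 against 16.4%. The BAMBI window held 2 matches to CAGAC, 3 to GGCGCC and 4 to GGAGCC, while the printed ID2 window held none of the 4 motifs. The printed matches did not overlap one another. These matches describe letters within 250 bases only. The best described BMP-responsive element of ID1 lies farther upstream.

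In each state, differences of at least 2-fold on the log2(FPKM + 1) scale were counted, with no test, since each side is 1 value. In mock cells 2 of the 9 measured genes, ID2 and SMAD7, were at least 2-fold higher in KO, where 2.27% of all 13456 features were. In starved cells 4 were (ID2, SMAD6, SMAD7 and BAMBI; 2.59% of all features), and in refed cells 6 (those 4 with ID1 and SKIL; 3.41% of all features), or 3 after upper-quartile rescaling. SKIL in starved cells, 2.10-fold higher in FPKM, was at 0.67 on the log2(FPKM + 1) scale and was not counted. No gene of the 9 was at least 2-fold lower in any state, against 3.22%, 1.46% and 1.51% of all features. ID2 and SMAD7 passed in all 3 states, as did 1.27% of all features. After median-ratio or upper-quartile rescaling ID2 in refed cells was at log2 0.98 or 0.96, under 2-fold, and of the 9 SMAD7 alone passed in all 3 states. The median difference of the 9 was 0.40, 0.72 and 1.26 in mock, starved and refed cells (log2), beside 0.07, 0.19 and 0.22 for all features. Of the 9, 5 (ID1, ID2, SMAD6, SMAD7 and BAMBI) had all 3 KO values above all 3 WT values, where 25.5% of all features did, and none had all 3 below, where 6.09% did. KO was above WT in every state for 7 of the 9, all but SKIL and BMP4, as for 54.3% of all features.

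Averaged over the 3 states, 7 of the 9 genes rose in KO and none fell, where 28.7% of all features rose and 4.58% fell. SMAD7 rose by 2.06 on the log2 scale (SE 0.22, limma adjusted p = 0.00840), ID2 by 1.46 (SE 0.09, adjusted p = 0.00352), SMAD6 by 1.44 (SE 0.22, adjusted p = 0.0160) and ID3 by 0.76 (SE 0.08, adjusted p = 0.00904). These 4 calls also held after median-ratio and upper-quartile rescaling, which bring the median of all features from 0.16 to -0.01 and -0.02. BAMBI (log2 1.27, adjusted p = 0.0427), ID1 (0.80, adjusted p = 0.0356) and TGFB1 (0.35, adjusted p = 0.0251) rose on the deposited scale but not after median-ratio rescaling (adjusted p = 0.0666, 0.0547 and 0.141). SKIL averaged log2 0.56 (SE 0.23, adjusted p = 0.124). BMP4 averaged 0.04 (SE 0.16, adjusted p = 0.846), and -0.16 after median-ratio rescaling.

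The fit behind these p-values has 2 residual degrees of freedom, the interaction of genotype and state, so they measure how even a difference was across states and not replicate error. Without WT mock, the column with endothelial transcripts, 8 genes were called, SKIL among them, and 8 without KO mock, where 37.4% and 37.5% of all features rose. None of the 9 was called without KO starved, KO refed, WT starved or WT refed, but in these fits only 3, 16, 3 and 14 of the 13456 features rose, and 5 or 6 of the 9 had an unadjusted p under 0.05. The averaged SMAD7 difference lay between 1.78 and 2.35 over these 6 fits and that of ID2 between 1.40 and 1.57. On the deposited scale the KO to WT ratio was smaller in mock than in starved and refed cells for all of the 9 but ID2 and TGFB1. For these the mock ratio, 2.93 and 1.28, lay between those in starved and refed cells. In starved and refed cells the endothelial sums were 73.3 and 74.6 FPKM in KO and 61.2 and 51.6 FPKM in WT. The part of the endothelial transcripts in the KO differences was not tested.

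**Figure D2:**
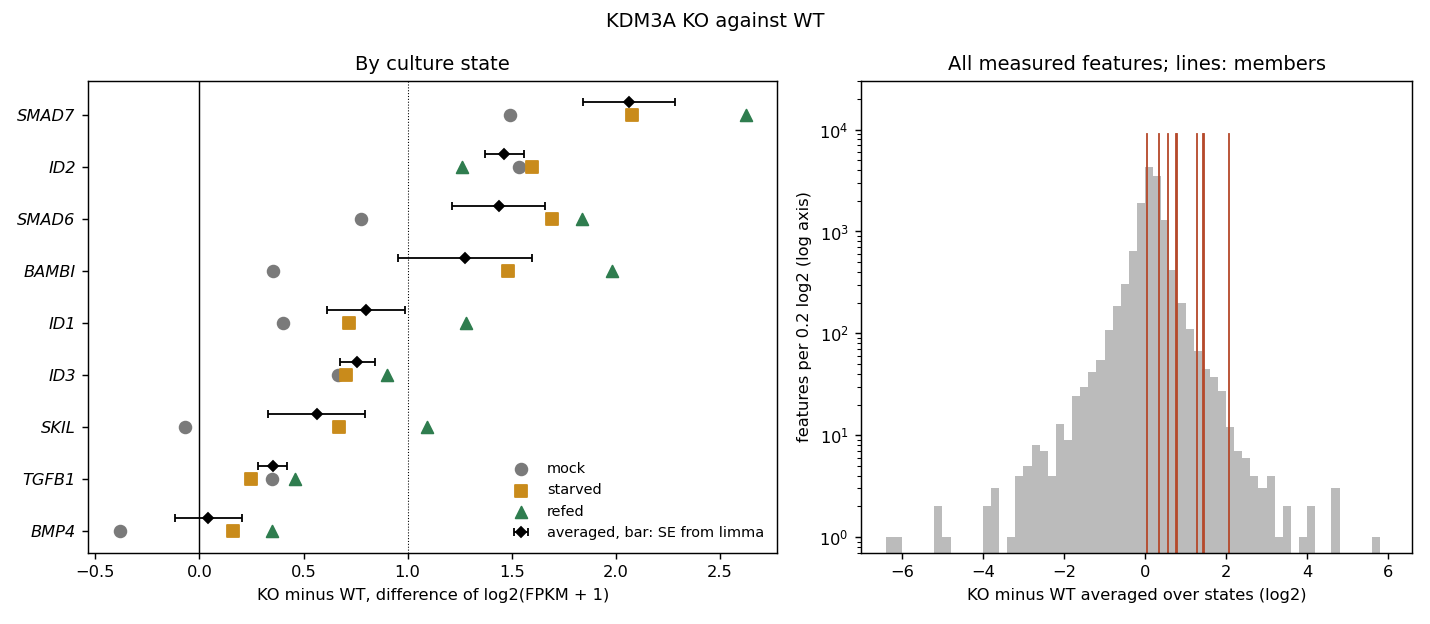
Left, KO minus WT difference of log2(FPKM + 1) for the 9 measured genes in mock (grey circle), starved (orange square) and refed cells (green triangle), with the average and its SE (black diamond and bar); the dotted line marks 2-fold. Right, number of features (log axis) per averaged difference for all 13456 features, with the 9 genes as red lines; of the 9, SMAD7 at 2.06 lies farthest out, and the median of all features is 0.16.

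Starved cells were set against mock cells, and refed against starved cells, to describe how the same genes followed serum. None of the 9 genes differed by 2-fold on the log2(FPKM + 1) scale between starved and mock cells. In KO 0.951% of all features were at least 2-fold higher and 1.18% lower, and in WT 1.03% were higher and 3.91% lower. The only one that passed the averaged test was TGFB1, which fell (log2 -0.38, SE 0.09, limma adjusted p = 0.0382, and adjusted p = 0.0791 after median-ratio rescaling), where 19.4% of all features fell and 5.83% rose. After median-ratio rescaling BMP4 was called instead (log2 0.59, adjusted p = 0.0476). Without WT mock none of the 9 was called, where only 5 of the 13456 features rose and 18 fell, and 4 of the 9 had an unadjusted p under 0.05.

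SMAD6, SMAD7 and BAMBI took different courses in the 2 genotypes. In KO the log2 difference between starved and mock cells was 0.77, 0.47 and 0.91, and in WT it was -0.14, -0.12 and -0.22. The median of all features was itself 0.19 lower in starved than in mock WT cells (log2), and after median-ratio rescaling the WT differences of SMAD6 and SMAD7 were 0.03 each, above 0. The KO response exceeded the WT response by log2 0.92, 0.59 and 1.13. This difference was not tested; of all features 2.15% were above 0 in KO and below 0 in WT with responses at least 1.5-fold apart. BMP4 was 1.65-fold higher in starved than in mock KO cells and 1.13-fold higher in WT cells, and SKIL was at 0.785 of the mock level in KO and 0.350 in WT.

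After serum was added back, ID2 and ID3 were higher in both genotypes, as were SMAD7, SKIL and BMP4. ID3 had 467 FPKM in refed and 220.3 FPKM in starved KO cells, and 249.6 FPKM in refed and 135 FPKM in starved WT cells, and rose on average (log2 0.98, SE 0.10, limma adjusted p = 0.0455), where 0.773% of all features rose and 0.052% fell. ID2 was 1.72-fold higher in KO and 2.20-fold higher in WT (averaged log2 0.95, SE 0.12, adjusted p = 0.0632). By the 2-fold count 1 gene was higher in KO, ID3, beside 1.98% of all features, and 1 in WT, ID2, beside 1.69%. None was 2-fold lower, beside 0.446% in KO and 0.684% in WT. SKIL was 2.15-fold higher in FPKM in KO but at 0.86 on the log2(FPKM + 1) scale. The call of ID3 was lost without the low-value filter (adjusted p = 0.139), without the variance trend (0.0528) and without any 1 of the 6 columns (0.111 to 0.635). ID1 did not share the course of ID2 and ID3, with a refed to starved ratio of 1.39 in KO and 0.941 in WT. SMAD7 was 1.57-fold higher in refed than in starved KO cells and 1.06-fold in WT cells, and SMAD6 was at 0.978 and 0.859 of its starved level. BAMBI in refed cells was at 1.05 of its starved level in KO and 0.683 in WT.

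**Figure D3:**
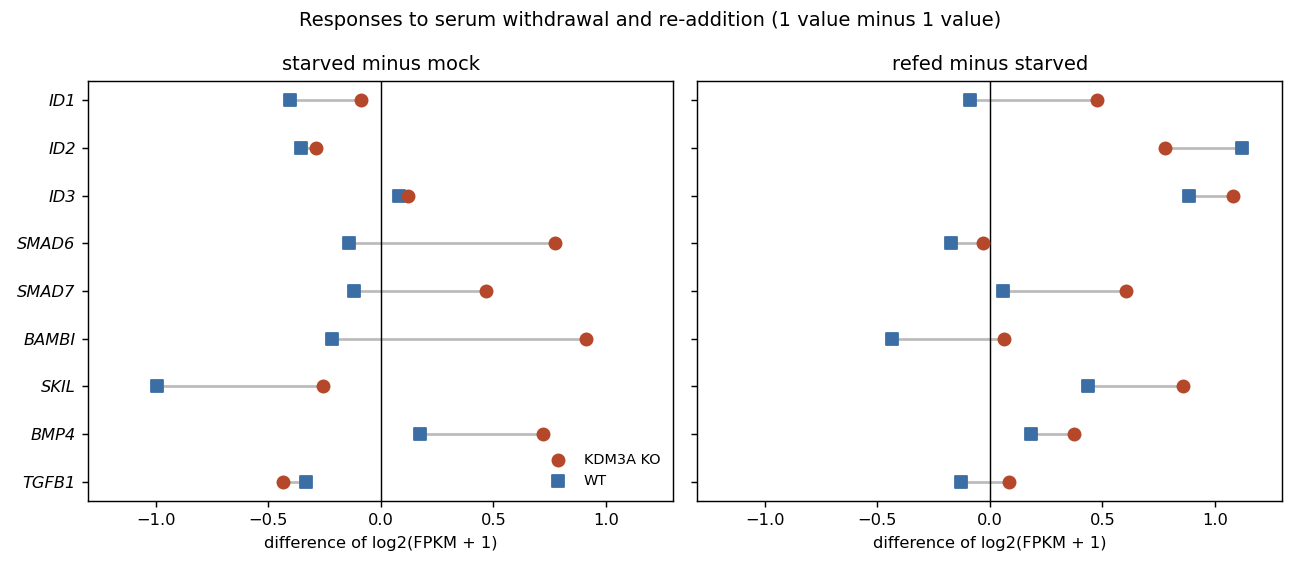
Difference of log2(FPKM + 1) between starved and mock cells (left) and between refed and starved cells (right) for the 9 measured genes, KDM3A KO as red circles and WT as blue squares, joined by a grey line, 1 value minus 1 value with no error. On starvation SMAD6, SMAD7 and BAMBI lie at 0.47 to 0.91 in KO and at -0.22 to -0.12 in WT. On serum re-addition ID2, ID3, SMAD7, SKIL and BMP4 lie right of 0 in both genotypes.

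The other genes of the pathway were read from 8 lists, 124 symbols in all. Among the receptors and co-receptors 3 of 13 measured rose and none fell in KO averaged over states: BMPR1A, a type I BMP receptor (log2 0.32, SE 0.06, adjusted p = 0.0232), TGFBR1 (0.28, adjusted p = 0.0299) and TGFBR3 (0.55, adjusted p = 0.0106), the last named after its values were seen. After median-ratio rescaling only TGFBR3 of these was called. The receptor gene ACVR2A, named after its values were seen, fell after either rescaling (log2 -0.37, limma adjusted p = 0.0355 after median-ratio rescaling). In that setting 12% of all features rose and 11.2% fell. TGFBR2, the type II TGF-beta receptor that is known to be disabled by mutation in HCT116, had 6.41, 5.97 and 4.47 FPKM in mock, starved and refed KO cells, against 15.6, 6.23 and 7.54 FPKM in WT cells (adjusted p = 0.0883). It too was chosen after its values were seen. Its highest level was in WT mock, as was that of the endothelial co-receptor ENG, at 33.2 FPKM there and at most 0.683 FPKM elsewhere.

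Of the 6 SMADs that carry the signal, none rose and 1 fell, where 28.7% of all features rose and 4.58% fell. SMAD3, of the TGF-beta branch, had 19.6, 11.2 and 10.4 FPKM in KO, against 24.7, 14.1 and 12.9 FPKM in WT (log2 -0.31, SE 0.05, limma adjusted p = 0.0193). Of the others, SMAD1, SMAD5 and SMAD9, which carry BMP signals, averaged log2 0.03, 0.19 and 0.27 (adjusted p = 0.858, 0.0743 and 0.111), SMAD2 0.08 (adjusted p = 0.304) and the shared partner SMAD4 0.12 (adjusted p = 0.165). On starvation SMAD2, SMAD3 and SMAD5 fell (log2 -0.33, -0.76 and -0.46), as did the receptor genes ACVR1 and TGFBR1 (-0.46 and -0.41), GDF15 (-1.11), TWSG1 (-0.89), TGIF2 (-0.51), NEDD4L (-0.42), SMURF1 (-0.32), ANGPTL4 (-2.53) and BHLHE40 (-0.75), where 19.4% of all features fell. Without WT mock, where only 18 of the 13456 features fell, none of these was called. After median-ratio rescaling 2 signalling SMADs fell on starvation, against 3 as deposited, and 2 intracellular inhibitors, against 3. In that setting 1 intracellular inhibitor, 1 other ligand and 1 extracellular antagonist or latency protein gene rose. Of all features 15.1% rose and 14.9% fell there.

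Of 11 measured genes for extracellular antagonists and for latency proteins, which hold TGF-beta in the matrix, 4 rose and none fell in KO. After either rescaling 2 rose and 1 fell, the latency protein gene LTBP3 (log2 -0.38, adjusted p = 0.0353 after median-ratio rescaling, named after its values were seen). Of all features 12% rose and 11.2% fell after median-ratio rescaling, and 11.7% rose and 11.7% fell after upper-quartile rescaling. FSTL3, which binds activins, had 26.5, 25.8 and 32.7 FPKM in KO, against 12.1, 9.60 and 9.17 FPKM in WT (log2 1.38, SE 0.14, adjusted p = 0.00724). CHRD, the BMP antagonist chordin, had 13.3, 9.96 and 11.1 FPKM in KO, against 7.66, 4.74 and 4.10 FPKM in WT (log2 0.97, SE 0.11, adjusted p = 0.00972). Both calls held after rescaling, while those of NBL1 (log2 0.50) and TWSG1 (0.39, named after its values were seen) did not. Of 15 other intracellular inhibitors and co-repressors 1 rose, TGIF2 (log2 0.49, adjusted p = 0.0116), and 1 fell, SMURF2, a ubiquitin ligase that works with SMAD7 on the receptors. SMURF2 had 26.9, 25.6 and 24.6 FPKM in KO, against 48.1, 36.5 and 36.3 FPKM in WT (log2 -0.62, SE 0.09, adjusted p = 0.0138). Both calls held after either rescaling. SKI, named after its values were seen, and SMURF1 then fell too. After median-ratio rescaling they were at log2 -0.30 and -0.19 (limma adjusted p = 0.0345 and 0.0412), where 11.2% of all features fell. Of 10 other ligands 3 rose, BMP7, BMP8B and GDF11 (log2 0.30, 0.25 and 0.42, all under 5 FPKM, named after their values were seen and not called after rescaling), and GDF15 fell (log2 -1.61, adjusted p = 0.00589). AMH, named after its values were seen, fell too after either rescaling (log2 -0.60, limma adjusted p = 0.0474 after median-ratio rescaling).

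BMP target genes other than the ID genes went both ways. Of 9 measured, 3 rose and 1 fell, on the deposited scale, where 28.7% of all features rose and 4.58% fell. DLX2, a homeobox gene, had 6.87, 7.89 and 21.7 FPKM in KO, against 0.786, 1.44 and 2.01 FPKM in WT (log2 2.31, SE 0.21, adjusted p = 0.00657). MSX2 had 15.3, 17.7 and 18.5 FPKM in KO, against 4.07, 2.16 and 2.70 FPKM in WT (log2 2.22, SE 0.19, adjusted p = 0.00550). Its relative MSX1 fell, with 19.9, 21.2 and 31.3 FPKM in KO, against 46.3, 38.1 and 45.2 FPKM in WT (log2 -0.84, SE 0.14, adjusted p = 0.0178). RUNX2 also rose (log2 0.86) from a low level, at most 1.17 FPKM, and was named after its values were seen. All 4 calls held after both rescalings. LMO2, named after its values were seen, fell too after either rescaling (log2 -0.29, limma adjusted p = 0.0326 after median-ratio rescaling, where 11.2% of all features fell).

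Of 15 TGF-beta target genes 2 rose and none fell, the kinase inhibitor gene CDKN2B (log2 0.95, adjusted p = 0.00758) and ANGPTL4 (0.64, adjusted p = 0.0237, and adjusted p = 0.0635 after median-ratio rescaling). On serum re-addition BHLHE40, JUNB and the ligand gene GDF15 rose (log2 2.89, 1.37 and 1.58). After median-ratio rescaling JUNB and GDF15 were no longer called (adjusted p = 0.0538 and 0.0758), and without WT mock none of the 3 was, where 12 of the 13456 features rose. Among the 6 measured basic helix-loop-helix partners and relatives TCF3, which ID proteins bind, rose (log2 0.37, adjusted p = 0.0332, and adjusted p = 0.0754 after median-ratio rescaling). TCF4 fell, named after its values were seen, at 0.0150 FPKM or less in KO and 1.01 to 3.40 FPKM in WT. BHLHE41, also named after its values were seen, fell after either rescaling (log2 -0.51, limma adjusted p = 0.0499 after median-ratio rescaling). The shares of these lists that rose were near or below the 28.7% of all features, apart from the extracellular antagonists and latency proteins and the BMP targets, where the counts are small. On the deposited scale no list held more than 1 gene that fell, beside 4.58% of all features. Without WT mock, a check added after the data were seen, 6 receptors, 4 intracellular inhibitors, 4 TGF-beta targets, 5 extracellular antagonists or latency proteins and 4 BMP targets rose, where 37.4% of all features rose. SMAD9, which is also among the BMP targets, rose too in that fit (log2 0.27, adjusted p = 0.0371). In it 3 other ligands and 1 basic helix-loop-helix gene also rose. Falls in it were 1 receptor, 1 intracellular inhibitor, 1 BMP target, 1 other ligand, 2 basic helix-loop-helix genes and SMAD3, beside 5.01% of all features.

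**Figure D4:**
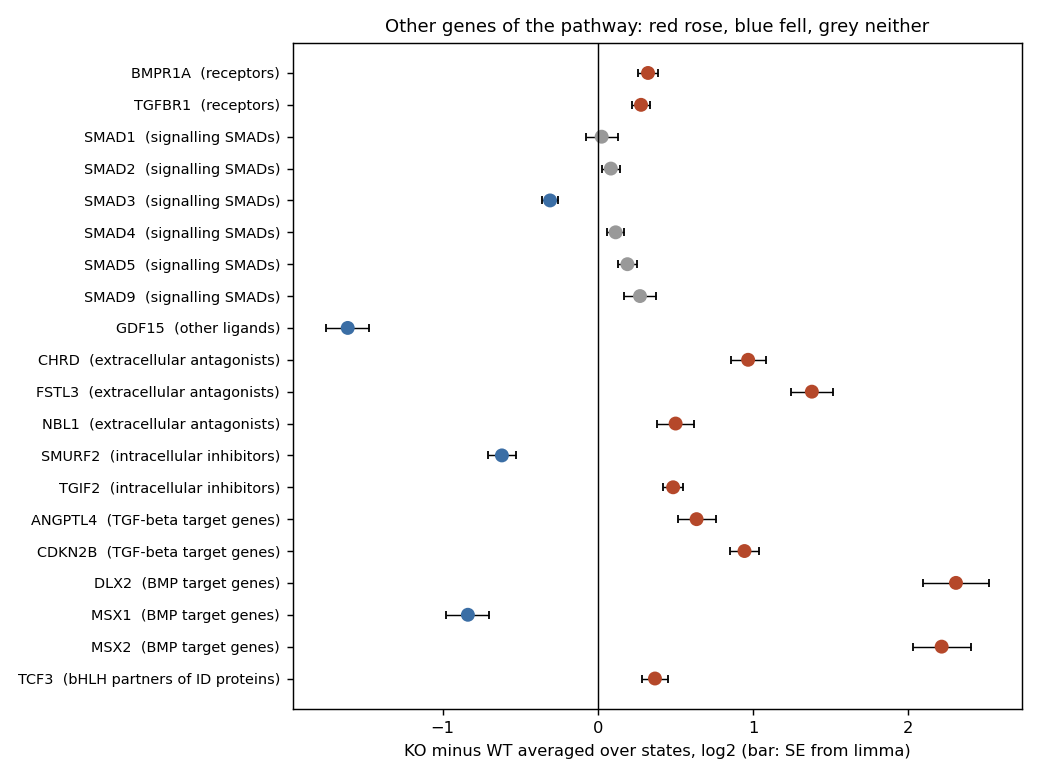
KO minus WT difference averaged over states (log2, horizontal axis) with its SE for the 20 named genes of the other pathway lists; red points rose, blue points fell and grey points did neither at a limma adjusted p under 0.05. DLX2 and MSX2 lie at 2.31 and 2.22, and GDF15 at -1.61.

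The genes whose level followed 1 of 4 of the 10 genes most closely over the 6 groups were listed by the root mean square distance between centred log2 profiles, among 9030 features. For ID1 these were DLX4 (distance 0.07), MDFI (0.07) and GPC1 (0.09). MDFI encodes another inhibitor of basic helix-loop-helix factors and had 23.1, 21.6 and 27.7 FPKM in mock, starved and refed KO cells, against 15.6, 10.96 and 10.99 FPKM in WT cells. For SMAD7 the nearest were KRT14 (0.21), IFI27 (0.22) and ALPP (0.24), all farther from it than the neighbours of ID1. For BMP4 they were DNAJA1 (0.07), SRSF3 (0.08) and C1orf122 (0.08), and for TGFB1 NDUFV3, ILVBL and FLCN (0.03 each). With 6 values that share depth and scaling, such closeness is a description of these columns.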

How the data were processed

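Polyadenylated RNA was sequenced, per the labels' protocols. The deposited values are FPKM computed by the authors, 1 column per group, and how the 2 samples of a group enter it is not stated. FastQC, cutadapt, TopHat2 and build hg19 are named in the submitters' processing notes, with no versions. The program that computed FPKM and its annotation are not given in the sources used here. Counts and depth were not used: among low values, steps of a constant ratio were clear only between WT starved and WT refed (ratio 0.9 in 412 of 5047 genes), so absolute depth is unknown and no counting interval is given. Symbols listed at 0 numbered 7312, 7113 and 7075 in mock, starved and refed KO cells. In WT cells they numbered 6401, 4300 and 4301 in the same order. How this bears on the KO differences was not tested.

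Values were used as deposited, as log2(FPKM + 1), which understates changes of low genes, for the 13456 features that reached 1 FPKM in any group. A difference of 1 value and 1 value had no test and was called at 2-fold. Averaged comparisons used limma 3.58.1 in R 4.3.3 with a variance trend and additive terms for genotype and state on the 6 columns, adjusted by Benjamini-Hochberg over all 13456 features (threshold 0.05). The fit was run on simulated data with independent noise and a constant KO shift in some features. These data held no shift of scale and no column like WT mock, so that run cannot speak for the p-values given here. "Rose" and "fell" are kept for calls of that fit. Python 3.11.15, numpy 2.4.6, pandas 2.3.3 and matplotlib 3.10.9 made the tables and plots. Alternatives were a pseudocount of 0.1, no filter or 5 FPKM, median-ratio and upper-quartile rescaling, limma without a trend, each column left out, and 1.5-fold. The genes, lists and tests were chosen with earlier results of these data known. Named were the 10 genes, KDM3A, up to 3 called genes per list and averaged comparison with the largest difference at 5 FPKM or more, all 6 signalling SMADs, and the 3 nearest profiles of 4 genes. All 124 list symbols were in the files, 1 under another symbol. Promoters came from RefSeq (GRCh38.p14), matched by symbol for all 10 genes.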

Additional observations from a re-analysis of the deposited data

Results flagged for a closer look

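On starvation SMAD6, SMAD7 and BAMBI moved up in KO and down in WT on the deposited scale. The KO response exceeded the WT response by log2 0.92 for SMAD6, 0.59 for SMAD7 and 1.13 for BAMBI. Each response is 1 value minus 1 value, so the difference was not tested. Of all features 2.15% went up in KO and down in WT with responses at least 1.5-fold apart. After median-ratio rescaling the gaps were 0.80, 0.50 and 1.01, and the WT responses of SMAD6 and SMAD7 were 0.03 each, above 0, while that of BAMBI was -0.04. The WT response uses the WT mock column, where the summed level of 20 endothelial markers was 319 FPKM, against 61.2 FPKM in WT starved cells; the part of those transcripts in these 3 differences was not tested.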

How the results depend on the processing

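Counts of called genes among the 9 measured moved with some choices. In KO against WT averaged over states the count of 7 was 4 after median-ratio rescaling and 4 after upper-quartile rescaling (ID2, ID3, SMAD6 and SMAD7), and 0 to 8 with 1 column left out. Over all features the same comparison called 3867 higher and 616 lower as deposited, 1616 and 1507 after median-ratio rescaling, 1573 and 1567 after upper-quartile rescaling, and 2470 and 627 without a filter. For starved against mock, averaged, the count of 1 was 0 without a filter, 2 after upper-quartile rescaling (ID3 and BMP4) and 0 to 1 with a column left out. Of all features 4 rose and 3 fell without a filter, and 2260 rose after upper-quartile rescaling, against 785 as deposited. For refed against starved, averaged, the count of 1 was 2 with a pseudocount of 0.1, 2 with a filter of 5 FPKM, 0 without a filter, 0 without a trend (152, 172, 27 and 70 of all features rose), and 0 in every fit with a column left out, where 2 to 4 genes had an unadjusted limma p under 0.05. At 1.5-fold in place of 2-fold, 4 genes were called in mock and 7 in starved cells for KO against WT, all higher, beside 5.92% and 8.45% of all features. For starvation 3 were higher in KO, beside 3.49%, and 1 was lower in WT, beside 13.9%. For refeeding 4 were higher in KO and 2 in WT, beside 3.5% and 3.04%. With a pseudocount of 0.1, 1 gene was lower for starvation in WT, beside 6.93% of all features, and 2 were higher for refeeding in KO, beside 2.47%. After upper-quartile rescaling 3 were higher for KO against WT in refed cells, beside 2.23%. No called difference changed sign. The cause of these shifts was not tested. Every fit with 1 column left out has 1 residual degree of freedom, those that called 8 genes among them. No paired analysis was possible because the columns carry no replicate number. With 1 value per group and no depth, low genes such as SKIL and ID4 carry an unknown counting error.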

Other observations

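Besides the co-receptor gene ENG, several TGF-beta family ligand genes and 1 receptor gene were high in WT mock and low in all other columns. INHBA, a subunit of activin A, was at 0.0135 FPKM in KO mock and 5.92 FPKM in WT mock, and at 0.287 FPKM or less in the other 4 groups. BMP6 was at 0.742 and 6.57 FPKM, TGFB2 at 0.0261 and 3.92 FPKM, and the type I receptor gene ACVRL1 at 1.03 and 7.31 FPKM in KO mock and WT mock. In the same WT mock column 18 of 20 endothelial markers reached 1 FPKM at a level at least 2-fold that of any other group; the part of those transcripts in these values was not tested. These genes were chosen after their values were seen.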
